A study of Mus musculus with 9 samples.

Results

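The Mecom locus was taken as the Mecom gene (gene ID 14013) with 100 kb on each side, and open chromatin across it was compared between LT-HSCs, the long-term repopulating stem cells of the blood, and MPPs, the multipotent progenitors they give rise to. The regions were chosen by the presence of a deposited ATAC-seq peak in any of 9 libraries: overlapping peaks were merged, and 57 of the 117465 merged regions of all lists fell in this window. Presence in at least 1 library is therefore a condition of membership and not a result. ATAC-seq uses the Tn5 transposase to insert adapters into accessible DNA, and a peak marks a stretch where insertions pile up. All libraries came from bone marrow of C57BL/6 mice, from lineage-negative cells of pooled animals that were then sorted as LT-HSCs or MPPs. Cells were wild type (WT) or carried the genotype labelled RXRa/RXRb-KO, a loss of both retinoid X receptor genes Rxra and Rxrb (KO). There were 3 LT-HSC KO libraries (replicates 1, 2 and 4), 2 LT-HSC WT libraries (2 and 3), 2 MPP KO libraries (1 and 2) and 2 MPP WT libraries (1 and 2). The sources used here give no age of the animals, no driver of the deletion and no marker gates of the sort. Whether replicates were separate pools of animals is not labelled, so p-values cover the spread among these libraries only, and part of it may be technical.

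Mecom encodes zinc finger transcription factors that haematopoietic stem cells need for their maintenance and that cause leukaemia when overexpressed after chromosomal rearrangement. A distal start gives the long MDS1-EVI1 form, which carries a PR domain of the histone methyltransferase type, and an internal start gives the short EVI1 form, which lacks it. Retinoid X receptors are nuclear receptors that pair with retinoic acid and other receptors and bind DNA at repeats of a short core sequence. In mm10 the gene spans chr3:29951296-30509759 on the minus strand, a length of 558 kb. The long start lies at 30509759 and the short start at 30013204, which is 497 kb further downstream. Positions of regions are given below as the distance of the midpoint downstream or upstream of the long start. Exons and introns were not assigned, because no transcript annotation of this build was used here.

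The stretches before the 2 starts are shown because they differed in whether a peak touched them. Both are the 250 bases upstream of the start on the minus strand, taken from RefSeq on GRCm38.p6 (chr3:30509760-30510009 for the long and chr3:30013205-30013454 for the short form). Capitals mark bases under a merged region, of which there were 0 in the long and 133 in the short form.
Long form, upstream of the MDS1 start: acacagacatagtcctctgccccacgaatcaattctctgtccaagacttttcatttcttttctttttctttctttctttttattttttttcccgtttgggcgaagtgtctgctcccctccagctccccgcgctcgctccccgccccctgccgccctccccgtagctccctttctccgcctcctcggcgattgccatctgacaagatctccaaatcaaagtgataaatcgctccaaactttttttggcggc
Short form, upstream of the EVI1 start: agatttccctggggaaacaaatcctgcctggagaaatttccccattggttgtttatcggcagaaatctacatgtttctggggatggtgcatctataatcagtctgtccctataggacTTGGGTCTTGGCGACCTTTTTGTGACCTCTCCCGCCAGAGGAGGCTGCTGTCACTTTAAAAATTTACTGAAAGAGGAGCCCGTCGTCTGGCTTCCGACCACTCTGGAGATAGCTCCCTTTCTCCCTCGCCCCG
G and C made up 50.8% of the long and 50.4% of the short stretch, against a median of 52.4% over 32851 promoter entries. A handful of short motifs was searched on both strands. The nuclear receptor core AGGTCA matched 1 time, as its reverse complement, in the short stretch at position -111, counted back from the start, and within the capitals. Of all promoter windows of the same length, 14.0% held this motif. The E-box CANNTG matched 1 time in the long stretch, at position -57, and occurred in 66.2% of windows. The GATA motif AGATAA (9.99% of windows), the RUNX motif TGTGGT (14.0%) and the ETS motif CCGGAA (12.0%) matched neither stretch. A match is a description of letters only.

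The region that covers the short start, chr3:30013028-30013337, was held by MPP KO 1, MPP KO 2 and MPP WT 1 and by no LT-HSC library. Its peaks stood at 88.9%, 75.7% and 95.7% of their lists, where the percent rank runs from 0 for the strongest to 100 for the weakest peak by the deposited −log10 q-value. They were thus weak peaks, and presence did not pass the cell type test (Fisher's exact test, adjusted p = 0.0786). A further region 0.805 kb downstream of the short start, chr3:30012257-30012541, was held by both MPP KO libraries at 92.2% and 79.2% and by no other.

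At the long start no peak lay over the start itself, and the nearest regions lay just inside the gene. The stronger of them, chr3:30508149-30508962, had its midpoint 1.20 kb downstream and was held by every library except LT-HSC KO 1. Its percent ranks were 47.9, 28.5, 17.3 and 29.9 in LT-HSC KO 2, KO 4, WT 2 and WT 3, and 11.5, 11.3, 8.82 and 8.54 in MPP KO 1, KO 2, WT 1 and WT 2. Fold enrichment over background was 5.97, 6.75, 8.88 and 8.59 in those LT-HSC libraries and 14.1, 13.6, 16.2 and 17.1 in those MPP libraries, so each MPP value was above each LT-HSC value. Lists of different length and libraries of unknown depth give these numbers, so they show no change by themselves. The second, chr3:30509217-30509484, was held by LT-HSC KO 4, MPP KO 1, MPP KO 2 and MPP WT 1 at 50.6%, 82.6%, 80.2% and 87.7%.

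**Figure D1:**
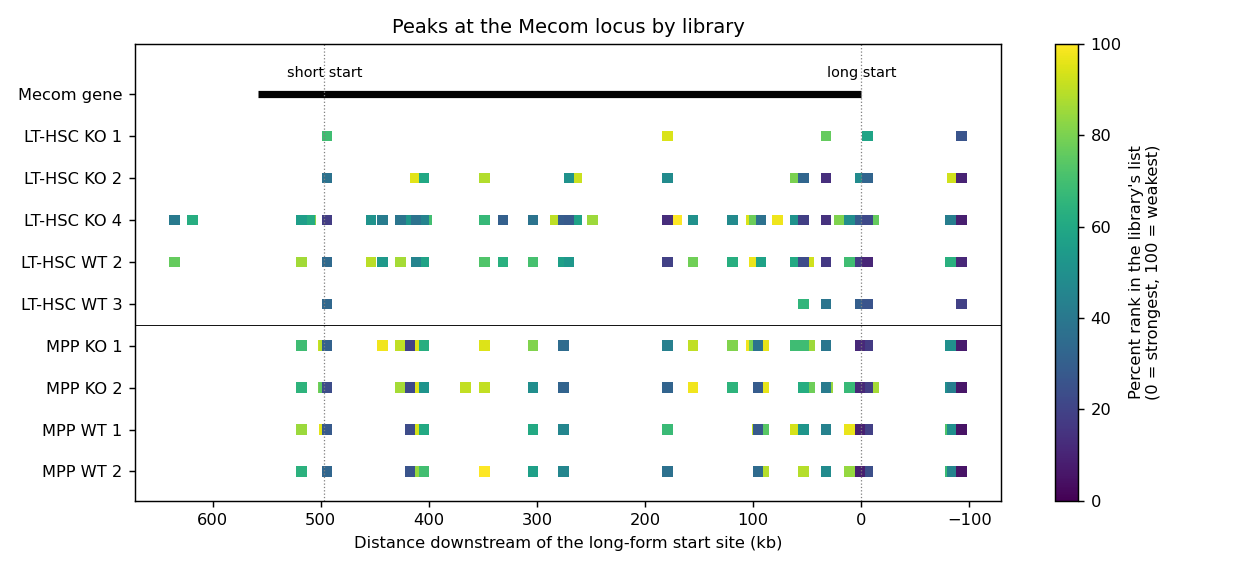
Peaks of each library (rows) along the Mecom locus, by distance downstream of the long-form start in kb, coloured by percent rank in the library's list (0 strongest); squares are wider than the regions. LT-HSC KO 4 held 46 of the 57 regions and LT-HSC KO 1 held 5, while the MPP libraries held 21 to 31.

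Of the 57 regions 48 lay within the gene, 2 beyond its 3′ end and 7 upstream of the long start. They were 200 to 1250 bp wide, with a median of 332 bp. No region reached the strongest 5% of any list, and the best percent rank was 5.06. Of the regions, 17 were held by 1 library, 9 by 2 libraries and 4 by all 9. LT-HSC libraries alone held 20, MPP libraries alone held 9, and both cell types held 28.

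The lists differed in length, and this touches every count below. LT-HSC lists held 22690 (KO 1), 43126 (KO 2), 71586 (KO 4), 50023 (WT 2) and 22878 (WT 3) peaks, and MPP lists held 78189 to 86353. Depth is unknown, so a missing peak cannot be told apart from an undetected one. In sorted bulk cells a region open in fewer cells and a region less open in each cell cannot be told apart either.

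The number of regions was 5, 15 and 46 in LT-HSC KO 1, 2 and 4, 29 and 6 in LT-HSC WT 2 and 3, 31 and 29 in MPP KO 1 and 2, and 25 and 21 in MPP WT 1 and 2. The means were 20.2 ± 17.3 (SD, n = 5) in LT-HSCs and 26.5 ± 4.43 (SD, n = 4) in MPPs, and the LT-HSC libraries spanned the whole MPP range. Per 10000 peaks of the list, LT-HSC libraries held 2.20, 3.48 and 6.43 (KO) and 5.80 and 2.62 (WT), and MPP libraries held 3.96 and 3.36 (KO) and 2.92 and 2.61 (WT). LT-HSC KO 4 and WT 2 were above all MPP libraries on this scale, and the other LT-HSC libraries were not.

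Lists of equal length gave a narrower spread. When each list was reduced to its strongest 22690 peaks, as many as the shortest one has, LT-HSC KO 1, 2 and 4 held 5, 8 and 10 Mecom regions and LT-HSC WT 2 and 3 held 8 and 6. The MPP libraries held 4, 5, 4 and 4. The means were 7.4 ± 1.95 (SD, n = 5) in LT-HSCs and 4.25 ± 0.5 (SD, n = 4) in MPPs, and only LT-HSC KO 1 overlapped an MPP library, MPP KO 2, at 5 regions. Of the 12 regions that reached the strongest peaks of any library, 7 did so in LT-HSC libraries alone. The share of all regions with this pattern was not taken, so neither it nor the means can be called particular to Mecom. This reduction cut the LT-HSC KO 1 list not at all and the MPP lists most, and the number of regions is a description without a test.

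**Figure D2:**
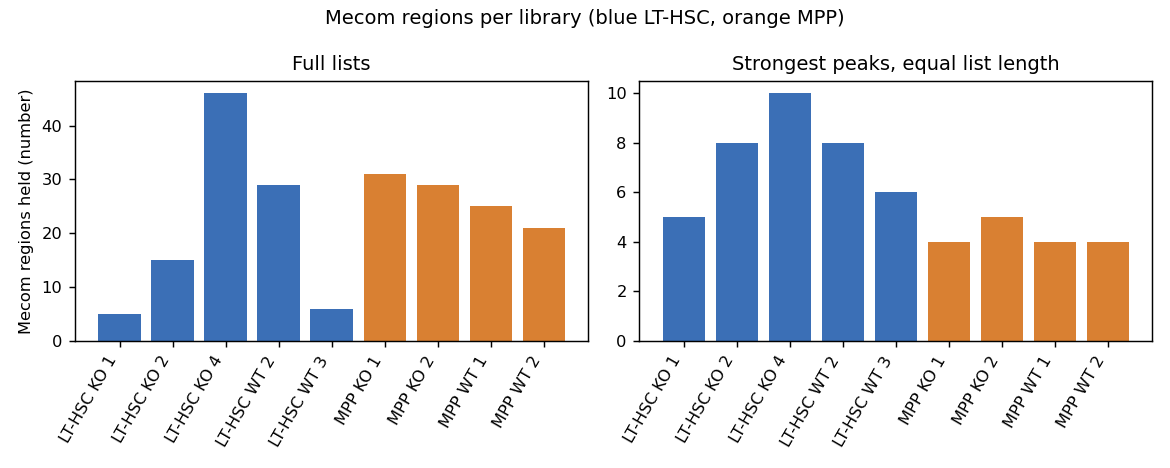
Number of Mecom regions held by each library (bars, LT-HSC blue, MPP orange) in the full lists and among the strongest 22690 peaks. The full lists gave 5 to 46 regions in LT-HSCs and 21 to 31 in MPPs, and the equal lists 5 to 10 and 4 to 5.

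Presence was tested by cell type for each of the 23 Mecom regions held by 3 to 6 libraries, with Fisher's exact test and Benjamini-Hochberg adjustment over all 52020 such regions. Of the 23, 2 (8.70%) were called for MPPs, against 31.9% of all regions tested, and 0 were called for LT-HSCs, against 0.442%. At an unadjusted p under 0.05 the counts were 5 for MPPs and 0 for LT-HSCs. The share of all regions at this unadjusted level was not taken, so these counts alone show no preference of the locus for a cell type. Both called regions lay within 100 kb downstream of the long start and were held by all 4 MPP and no LT-HSC library (exact p = 0.00794, the smallest possible, adjusted p = 0.0245). The first, chr3:30414129-30414747, 95.3 kb downstream, stood at 37.6%, 28.7%, 27.9% and 34.6% of the MPP KO 1, KO 2, WT 1 and WT 2 lists, with fold enrichments of 11.8, 14.0, 14.7 and 12.6. The second, chr3:30419750-30420113, 89.8 kb downstream, stood at 96.1%, 96.4%, 74.0% and 88.7%, with fold enrichments of 4.74, 4.74, 7.10 and 5.57. The first was thus a moderate peak in each MPP library and the second a weak one, with −log10 q-values of 4.74 and 4.79 in MPP KO 1 and 2, so that a minimum of 5 left 1 call. In lists of equal length neither region was among the strongest peaks of any library, and neither could be tested.

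Among the strongest peaks of equal lists, 5 Mecom regions could be tested, with 1 called in each direction. All regions of that test numbered 13515, and 21.1% of them were called for MPPs and 10.9% for LT-HSCs. The region called for MPPs, chr3:30091907-30092333, lies 417.6 kb downstream of the long start and 78.9 kb before the short start. It stood at 19.0%, 21.9%, 23.0% and 25.9% of the MPP KO 1, KO 2, WT 1 and WT 2 lists, with fold enrichments of 20.6, 19.6, 20.2 and 18.0. Among LT-HSC libraries only KO 4 held it, at 52.8% with a fold enrichment of 7.80. In the full lists its adjusted p was 0.0786, and among the strongest peaks it was 0.0248 (both Fisher's exact test), with 4 of 4 MPP and 0 of 5 LT-HSC libraries.

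The region called for LT-HSCs among the strongest peaks, chr3:30476957-30477385, lies 32.6 kb downstream of the long start and was held by all 9 libraries in the full lists. Its percent ranks were 76.5, 13.6 and 14.4 in LT-HSC KO 1, 2 and 4, 16.4 and 38.9 in LT-HSC WT 2 and 3, 39.4 and 41.1 in MPP KO 1 and 2, and 44.5 and 47.8 in MPP WT 1 and 2. The −log10 q-values were 5.98, 34.1, 73.1, 44.7 and 21.7 in the LT-HSC and 28.6, 28.6, 27.7 and 23.7 in the MPP libraries, in the same order. The fold enrichments were 5.24, 15.8, 18.2, 16.2 and 8.61 in LT-HSCs and 13.6, 12.8, 12.6 and 11.4 in MPPs. LT-HSC KO 2, KO 4 and WT 2 were thus above every MPP library, and the 2 short LT-HSC lists, KO 1 and WT 3, were below every MPP library in fold enrichment. Among the strongest peaks it was present in 5 of 5 LT-HSC and 0 of 4 MPP libraries (Fisher's exact test, adjusted p = 0.0248), and the whole LT-HSC KO 1 list counts as its strongest peaks.

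A further 2 regions were among the strongest peaks of 4 of 5 LT-HSC and 0 of 4 MPP libraries, although all MPP libraries held them in the full lists. They were singled out after their values were seen, and neither passed the test (Fisher's exact test, adjusted p = 0.0825 for each). The remaining tested region, 2.26 kb before the short start, did not pass either (Fisher's exact test, adjusted p = 0.0825). It was among the strongest peaks of 5 of 5 LT-HSC and 1 of 4 MPP libraries. The region at chr3:30330448-30330850, 179.1 kb downstream, had percent ranks of 94.2, 48.0 and 12.8 in LT-HSC KO 1, 2 and 4 and 19.3 in LT-HSC WT 2, with no peak in WT 3, and 43.3, 31.7, 67.9 and 37.0 in MPP KO 1, KO 2, WT 1 and WT 2. The region at chr3:30455933-30456500, 53.5 kb downstream, had 32.5 and 18.6 in LT-HSC KO 2 and 4 and 22.8 and 65.4 in LT-HSC WT 2 and 3, and 69.1, 61.8, 52.3 and 88.7 in the MPP libraries in that order. Without the 2 LT-HSC libraries of under 30000 peaks, equal lists gave 3 Mecom calls for LT-HSCs instead of 1. That setting was chosen after seeing the data, and the share of all regions called under it was not taken. The count is therefore no result about the locus.

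In the full lists, 7 Mecom regions were held by 2 or more LT-HSC libraries and no MPP library. These 7 were 17.5% of the 40 Mecom regions held by 2 or more libraries, and the same pattern held for 7.09% of all 95786 such regions. Of the 7, 5 were held by LT-HSC KO 4 and WT 2 alone, so they rested on the 2 longest LT-HSC lists: the count was 1 without KO 4 and 2 without WT 2. Their peaks spanned percent ranks of 27.8 to 92.1, with a median of 38.3 in KO 4 and 60.6 in WT 2. The strongest, chr3:30239370-30239820, 270.2 kb downstream, stood at 50.9% of LT-HSC KO 2, 27.8% of KO 4 and 53.0% of WT 2. It was present in 3 of 5 LT-HSC and 0 of 4 MPP libraries and did not pass the test (Fisher's exact test, adjusted p = 0.202).

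LT-HSC WT 2 and KO 4 shared most of their Mecom regions across genotypes. The 28 shared regions were 96.6% of those of WT 2 and 60.9% of those of KO 4. KO 4 alone held 12 regions, at percent ranks of 54.8 to 99.8, WT 2 alone held 1, and single MPP libraries held 4. Every region held by 1 library thus stood in the weaker part of its list.

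A set of 4 regions was held by all 9 libraries and allowed a comparison of rank. The first, 32.6 kb downstream of the long start, is described above. The region at chr3:30015281-30015640 lies 2.26 kb before the short start and is the closest to it of those 4. The region at chr3:30514922-30515631 lies 5.52 kb upstream of the long start. The region at chr3:30601978-30603119 covers the start of the neighbouring gene Mynn, a zinc finger gene, 92.8 kb upstream. Each library was ranked anew over the 13908 regions of the series held by all 9 libraries, and mean ranks were compared by a 2-sided exact permutation test over 126 labellings, whose smallest p is 0.00794. Of all these regions, 18.6% were stronger in LT-HSCs and 19.7% stronger in MPPs at an unadjusted p under 0.05. After adjustment 0% were called, with a smallest adjusted p of 0.0653.

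The region 32.6 kb downstream of the long start was stronger in LT-HSCs before adjustment and not called after it. Its ranks among shared regions were 86.8, 38.3 and 61.8 in LT-HSC KO 1, 2 and 4 and 53.9 and 57.7 in LT-HSC WT 2 and 3, against 92.8, 95.0, 92.9 and 93.2 in MPP KO 1, KO 2, WT 1 and WT 2. All 5 LT-HSC values were stronger than all 4 MPP values. The mean difference was -33.8 percentage points (exact permutation p = 0.0159, adjusted p = 0.0653). It was -11.2 points when ranks were taken in the whole lists, with an exact permutation adjusted p of 0.647. This region was 1 of 4 at an unadjusted p under 0.05.

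The other 3 regions overlapped between cell types. Near the short start the shared-region ranks were 81.8, 80.8, 71.6, 86.7 and 50.9 in LT-HSCs (KO 1, KO 2, KO 4, WT 2, WT 3) and 87.7, 82.7, 83.7 and 85.9 in MPPs (KO 1, KO 2, WT 1, WT 2), a difference of -10.6 points (exact permutation p = 0.167, adjusted p = 0.294). In the whole lists its percent ranks were 69.4, 37.7, 17.8, 34.3 and 33.5 in LT-HSCs and 31.1, 23.2, 28.0 and 32.5 in MPPs. At the Mynn start the shared-region ranks were 38.1, 27.9, 40.6, 38.4 and 31.1 in LT-HSCs and 37.1, 32.5, 29.3 and 29.4 in MPPs, a difference of 3.14 points (exact permutation p = 0.373, adjusted p = 0.518). The Mynn region was the best placed of the window in every library but LT-HSC WT 2, at 8.52% to 26.1% of LT-HSC and 5.06% to 7.14% of MPP lists. These differences changed sign with the ranking used, by fold enrichment or, near the short start, in whole lists.

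The region 5.52 kb upstream of the long start separated LT-HSC genotypes among shared regions but not in whole lists. Its shared-region ranks were 72.6, 74.2 and 80.2 in LT-HSC KO 1, 2 and 4 and 37.6 and 40.8 in LT-HSC WT 2 and 3, so both WT libraries were stronger than all KO libraries. In the whole lists the percent ranks were 58.5, 32.4 and 21.9 in KO and 10.9 and 25.9 in WT, and KO 4 was stronger than WT 3. The −log10 q-values were 8.43, 16.5 and 49.7 in KO and 60.3 and 33.8 in WT, with the same overlap. The fold enrichments were 5.90, 8.87 and 10.6 in KO and 14.7 and 10.7 in WT. In MPPs the shared-region ranks were 69.9, 74.9, 73.0 and 78.5 in KO 1, KO 2, WT 1 and WT 2, and the genotypes overlapped. Between cell types the difference was -13.0 points (exact permutation p = 0.365, adjusted p = 0.512), with its sign reversed under the other rankings. Of the 4 shared regions this was the 1 with LT-HSC WT stronger without overlap, and in 0 was KO stronger; over all 13908 regions the shares were 15.5% and 16.3%. It was singled out after its values were seen, and no test of genotype rank within LT-HSCs was made.

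**Figure D3:**
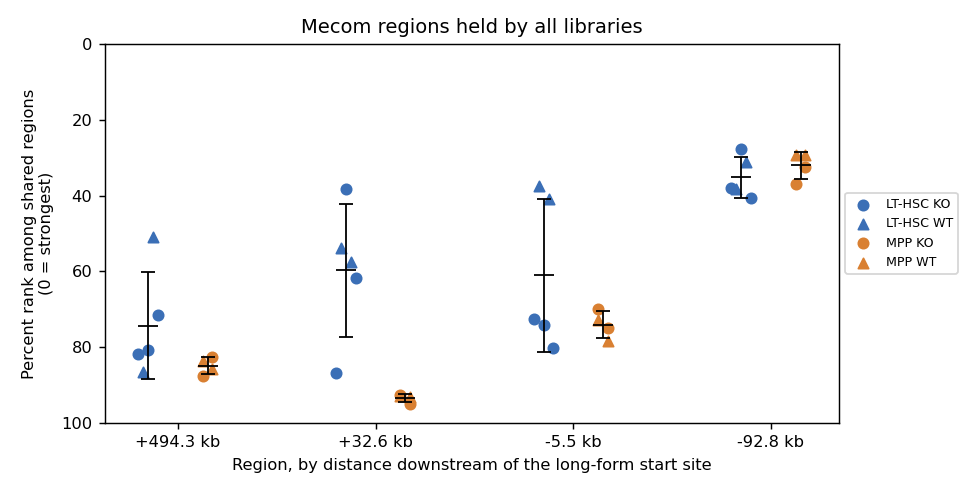
Percent rank of the 4 regions held by all libraries among the 13908 shared regions (vertical axis, 0 strongest at the top), one point per library, with mean and SD per cell type as horizontal and vertical bars; positive positions are downstream of the long start. At +32.6 kb all LT-HSC points lie above the MPP points, and at -5.5 kb both LT-HSC WT points lie above the LT-HSC KO points.

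Loss of the receptors was compared with wild type by presence first. An exact test stratified by cell type was adjusted over the 1565 regions of the series able to reach an unadjusted p under 0.05. It called 0% of them, with 39 at an unadjusted p under 0.05 and a smallest adjusted p of 0.669. Of the 6 Mecom regions among them, 0 were called and 0 had an unadjusted p under 0.05. Their exact p-values were 0.533 for 4 regions and 1 for 2. Being able to reach that unadjusted level does not put an adjusted call within reach. Among the 6, regions held by 2 LT-HSC and 2 MPP libraries could reach that level only through higher presence in WT. The 0 calls therefore do not show that genotype left the locus unchanged.

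In MPPs, more Mecom regions were held by KO than by WT libraries, with 30 ± 1.41 in KO and 23 ± 2.83 in WT (SD, n = 2 each). The 2 groups did not overlap, and MPP KO lists were 78189 and 86353 peaks long against 85471 and 80451 in WT. With 2 libraries against 2 the smallest exact p is 0.333, so the counts were not tested. The share of other loci whose counts separate in this way was not taken. Among the strongest 22690 peaks the counts were 4 and 5 in KO and 4 and 4 in WT. A set of 5 regions was held by both MPP KO and neither MPP WT library, 12.5% of the 40 against 2.4% of all regions held by 2 or more libraries. One was held by both WT and neither KO library, 2.5% against 2.92%. All of the 5 were absent from the strongest peaks of MPP libraries, and their MPP percent ranks ran from 64.5 to 98.0.

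Of the 5, 3 were also held by LT-HSC KO 4 and LT-HSC WT 2. At chr3:30083361-30084041, 426.1 kb downstream, the percent ranks were 90.5 and 86.4 in MPP KO 1 and 2, 38.8 in LT-HSC KO 4 and 86.7 in LT-HSC WT 2. At chr3:30353914-30354379, 155.6 kb downstream, they were 90.5 and 98.0 in MPP KO 1 and 2, 50.1 in LT-HSC KO 4 and 78.2 in LT-HSC WT 2. At chr3:30390167-30390831, 119.3 kb downstream, they were 80.9 and 64.5 in MPP KO 1 and 2, 47.3 in LT-HSC KO 4 and 62.7 in LT-HSC WT 2. In each of these 3 the LT-HSC KO 4 peak was the best placed. The other 2 had no LT-HSC peak: the one 0.805 kb beyond the short start, given above, and chr3:30461912-30462159, 47.7 kb downstream of the long start, at 85.5% and 77.9%.

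The region held by both MPP WT and neither MPP KO library, chr3:30595170-30595835, lies 85.7 kb upstream near Actrt3, which encodes an actin-related protein. It stood at 95.3% and 99.7% of MPP WT 1 and 2, 94.3% and 91.9% of LT-HSC KO 2 and 4, and 64.4% of LT-HSC WT 2. Its MPP peaks were thus among the weakest of their lists. No Mecom region was held by all LT-HSC libraries of 1 genotype and none of the other.

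Ranks in MPPs were compared over the 64003 regions held by all 4 MPP libraries, of which 17 were Mecom regions. With 2 libraries against 2 the smallest exact p is 0.333, so no test was made, and regions were counted where the genotypes did not overlap. In 6 of 17 (35.3%) both KO libraries were stronger, against 23.9% of all regions, and in 3 (17.6%) both WT libraries were stronger, against 23.2%. The other 8 overlapped. The median difference over the 17 was -4.49 points, KO minus WT, with the KO mean stronger in 10 and the WT mean stronger in 7. Without MPP KO 1 or without MPP WT 2 the first count was 10. The second count was 6 without MPP KO 2 or WT 1 and 5 without WT 2. These counts were taken over regions held by the remaining MPP libraries, not over the 17. Leaving out an MPP library leaves a single library of its genotype, so non-overlap is easier to reach. The shares of all regions in these settings were not taken, so the higher counts are no result about the locus.

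Regions within the gene body and the upstream flank were among those stronger in KO. At 275.6 kb downstream (chr3:30233957-30234429) the ranks were 42.5 and 42.5 in MPP KO 1 and 2 and 60.5 and 57.1 in MPP WT 1 and 2. At 82.7 kb upstream (chr3:30592340-30592671) they were 59.8 and 65.7 in KO and 88.2 and 81.6 in WT. These 2 had the widest gaps. At the region 404.4 kb downstream the ranks were 74.6 and 68.2 in KO and 77.3 and 83.1 in WT. At the region 417.6 kb downstream they were 23.1 and 29.4 in KO and 30.6 and 32.5 in WT. At the region 32.6 kb downstream they were 47.7 and 54.8 in KO and 58.7 and 59.5 in WT, and at the one 5.52 kb upstream 21.3 and 24.2 in KO and 25.3 and 30.3 in WT. At the last 2 regions the MPP genotypes overlapped when ranked over the 13908 regions held by all libraries. The region 32.6 kb downstream then stood at 92.8 and 95.0 in KO and 92.9 and 93.2 in WT. At the region 404.4 kb downstream the genotypes overlapped in whole lists, at 62.8% and 51.6% in KO and 60.3% and 69.7% in WT.

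Regions stronger in WT MPPs lay near the long start, at the Mynn start and in the first 100 kb of Mecom. Just inside the long start (1.20 kb downstream) the ranks were 14.0 and 15.2 in KO and 11.8 and 10.7 in WT. At the Mynn start they were 8.71 and 7.47 in KO and 6.76 and 6.77 in WT. At the region 89.8 kb downstream, called for MPPs, they were 98.6 and 99.3 in KO and 89.3 and 95.9 in WT.

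**Figure D4:**
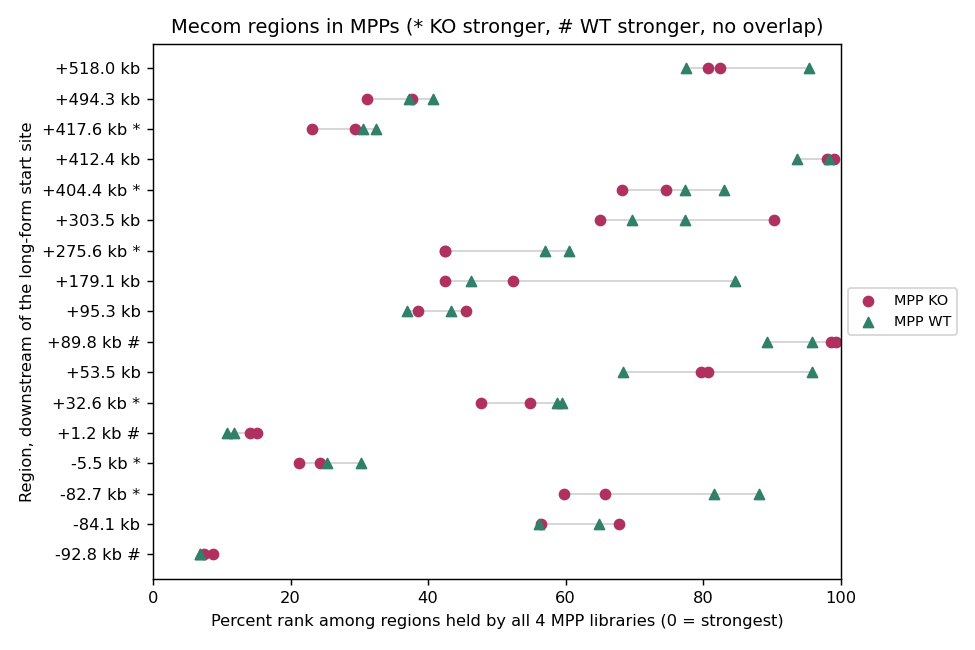
Percent rank of the 17 Mecom regions held by all 4 MPP libraries (horizontal axis, 0 strongest, re-ranked over 64003 regions; circles KO, triangles WT, 1 point per library). Stars mark 6 regions with both KO libraries stronger and hashes 3 with both WT libraries stronger, and the other 8 overlap.

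A further 4 regions lay at the ends of other genes. Near the long non-coding RNA gene Mannr, chr3:29890851-29891106 was held by LT-HSC KO 4 alone at 62.2%. At Gm52621, also a long non-coding RNA gene, chr3:29999141-29999411 and chr3:30000854-30001053 were held by LT-HSC KO 4 alone at 61.1% and 81.8%. Over the transfer RNA gene n-TVaac8 next to Mynn, chr3:30601205-30601513 was held by LT-HSC KO 4, MPP KO 1, MPP WT 1 and MPP WT 2 at 69.7%, 74.5%, 76.3% and 82.9%.

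Other stem cell genes were read from a list of 28 transcription factors, EVI1 partners and targets, each with its gene body and 100 kb on each side. Of these, 26 had regions, and Gata1 and Suv39h1 had none, since the lists hold no peaks on the X chromosome. Of 383 regions tested for presence by cell type, 109 (28.5%) were called for MPPs in 25 genes and 3 (0.783%) for LT-HSCs, against the 31.9% and 0.442% over all regions given above. Gata2, a stem cell factor that EVI1 is known to activate, had 34 regions, and of the 14 tested 5 were called for MPPs and 0 for LT-HSCs. Runx1, a master regulator of blood formation, had 53, and of the 29 tested 16 were called for MPPs and 0 for LT-HSCs. Prdm16, the closest relative of Mecom, had 47, and of the 17 tested 1 was called for MPPs and 0 for LT-HSCs, with 4 regions held by 2 or more LT-HSC and no MPP libraries. Hlf, a factor that marks stem cells, had 27, and of the 11 tested 1 was called for MPPs and 0 for LT-HSCs, with 2 such regions. Over the whole list, 47 of 704 regions held by 2 or more libraries (6.68%) were LT-HSC regions of this kind.

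Marker gene lists were read the same way as a check on the labels, since peaks give no expression. At 9 LT-HSC markers 24 of 104 tested regions (23.1%) were called for MPPs and 2 (1.92%) for LT-HSCs, and at 7 MPP markers 36 of 101 (35.6%) and 1 were. The 2 lists are not separate, because the windows of the LT-HSC marker Slamf1 and the MPP marker Cd48 overlap. Each of these genes had 1 region called for LT-HSCs, and a region in the overlap counts in both lists. Regions held by 2 or more LT-HSC and no MPP libraries were 10.5% of those at LT-HSC markers and 4.24% of those at MPP markers. Called for MPPs were 39 of 78 (50.0%) at mature myeloid markers, 21 of 53 (39.6%) at B cell, 16 of 47 at T cell and 8 of 43 (18.6%) at erythroid markers, so the share at MPP markers was not the highest. Called for LT-HSCs were 0 regions at T cell, B cell, erythroid, and stromal and endothelial markers and 1 at mature myeloid markers. Endothelial cells also express Mecom, and at 5 stromal and endothelial markers 14 of 50 tested regions (28.0%) were called for MPPs. Of the regions at these markers 8 to 13 were among the strongest peaks of an LT-HSC library and 11 to 13 among those of an MPP library. The part of such cells in the Mecom results was not tested.

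The genes most like Mecom were those with the smallest root mean square distance in the share of regions held per library, over 9 libraries and 10876 protein-coding genes with at least 20 regions. They were Agtpbp1 (5.53 points, 26 regions), Gmds (6.01, 38), Pinx1 (6.09, 30), Arhgef12 (6.11, 23) and Kcnj11 (6.14, 20), against a median distance of 23.3 points. Agtpbp1 encodes a carboxypeptidase acting on tubulin, Gmds an enzyme of GDP-fucose synthesis, Pinx1 a telomerase inhibitor and Kcnj11 a potassium channel subunit. Mecom regions were held at 80.7% by LT-HSC KO 4 and at 36.8% to 54.4% by MPP libraries. A higher share in LT-HSC KO 4 than in every MPP library was found for 694 of the candidate genes (6.38%). Windows of neighbouring genes share regions, and the measure reflects list length as well as the locus.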

How the data were processed

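Chromatin accessibility was measured by ATAC-seq in 9 libraries, grouped by the cell type and genotype in the labels. Each library has its own peak list, made by the authors with MACS2 2.1.1 on mm10, per the submitters' processing notes. The sources used here give no Tn5 shift or duplicate filter. Deposited for each peak were a display score, the fold over background as a ratio, and the p-value and q-value as −log10. Read counts were not used, so depth is unknown and no interval for depth is given.

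Peaks overlapping by at least 1 bp were merged across lists. Presence of a peak was compared with Fisher's exact test (SciPy 1.17.1, Python 3.11.15), adjusted by Benjamini-Hochberg over all regions held by 3 to 6 libraries. Ranks came from the deposited −log10 q-value and were retaken over shared regions. Called means an adjusted p under 0.05. Gene positions and promoter stretches came from RefSeq on GRCm38.p6, the assembly mm10 is built from. The tests were tested on simulated data. The members and lists were chosen with earlier results of these data known. Regions given in full were those held by all 9 libraries, those called, those held by every library of 1 genotype of a cell type and none of the other, those within 1 kb of a gene end, and those in the strongest 5% of a list. The 5 genes most alike are also named. Alternatives were a 100 bp overlap, a −log10 q-value of 5 or more, equal lists, rank by fold enrichment or in whole lists, the gene body alone, a replicate block and leaving out each library. Those without the 2 short LT-HSC lists, and those of counts not listed at first, were chosen after seeing the data.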

Additional observations from a re-analysis of the deposited data

Results flagged for a closer look

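Of 29 groups of values examined, 1 was flagged by a rule that sets the gap to the nearest value against the range. Among the strongest 22690 peaks, MPP KO 2 held 5 Mecom regions and the other MPP libraries 4 each, the extra one being the region 2.26 kb before the short start. The other MPP counts were equal, so any different count was flagged whatever its size, and the flag shows no unusual library. For continuous values chance flags about 1 in 20 groups.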

How the results depend on the processing

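The count of 2 presence calls for MPPs was 1 with a −log10 q-value of 5 or more and 2 to 3 when each library was left out. With equal lists both calls were lost and 1 other region was called, and the count was also 1 with equal lists without the 2 LT-HSC libraries of under 30000 peaks. With the replicate block, an exact paired permutation test over 3 same-numbered pairs whose smallest p is 0.25, they were 0. The labels do not say what a shared number means. Deviations of same-numbered libraries from their group means correlated at 0.00268 to 0.0428 over the 13908 shared regions. For differently numbered libraries of the same genotype the values were -0.0428 to 0.0300. With 2 MPP libraries per genotype their deviations are mirror images, so these values cannot show what a shared number means. Whether same-numbered libraries share a source was not tested. The 0 calls for LT-HSCs became 1 with equal lists, 1 without those 2 libraries and 3 with both, and stayed at 0 to 0 when each library was left out. Shares over all regions were not taken for the settings without those 2 libraries. The 7 regions held by 2 or more LT-HSC and no MPP libraries were 4 with equal lists, with or without those 2 libraries, and 1 to 9 when each library was left out. The 5 regions of MPP KO alone were 0 with equal lists and 4 to 7 with libraries left out. The 1 region of MPP WT alone was 2 at the stricter q-value, 0 with equal lists, 0 in the gene body alone and 1 to 2 with libraries left out. The MPP mean number of regions, 26.5, was 4.25 with equal lists, 21 in the gene body and 25 to 28.3 with libraries left out, and the LT-HSC mean, 20.2, was 7.4 with equal lists, 8.67 with equal lists without those 2 libraries, 30 in full lists without them and 13.8 to 24 with libraries left out. The rank counts in MPPs were 6 to 10 for KO and 3 to 6 for WT with libraries left out. Non-overlap is easier to reach with an MPP library left out. Shares over all regions were not taken for any count with a library left out. Rank differences changed sign by fold enrichment to 1.29 points near the short start, 5.50 upstream of the long start and -16.0 at Mynn, and in whole lists to 9.82 and 10.2 at the first pair. The cause was not tested. Genotype presence stayed at 0 calls in every alternative run. That test called 0% of the 1565 regions it covered over the whole series in the main setting. The unchanged 0 therefore shows no stability of a genotype result at Mecom.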
